A study of Mus musculus with 3 samples.

Results

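Cbx2 occupancy was examined at 6 mouse oncofetal gene loci, those of Igf2bp1, Igf2bp2, Igf2bp3, Plag1, Lin28b and Hmga2. Members were the peaks of the deposited Cbx2 peak table that overlapped, by at least 1 bp, a fixed mm9 window around each gene. These windows held 8 of the 2217 peaks: 3 at Igf2bp3, 2 at Plag1, 2 at Lin28b and 1 at Igf2bp1. The windows of Igf2bp2 and Hmga2 held none. The loci were chosen by the Cbx2 RPM values and K36M/WT ratios of these same libraries, so all peak levels and K36M/WT ratios below are descriptions, with no test. The table carries no gene names, so a peak is called by the gene of its window, and which gene a peak acts on was not tested.

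The cells were C3H10T1/2, a line of mesenchymal progenitors derived from C3H mouse embryos, made to express FLAG-HA-tagged histone H3.3 stably. Chromatin immunoprecipitation (ChIP) with a Cbx2 antibody and sequencing gave 1 library from cells with wild-type H3.3 (WT) and 1 library titled as H3.3K36M, in which lysine 36 of the histone is replaced by methionine. The genotype label of the K36M library also reads wild-type H3.3, so its identity rests on its title and on the series' design text. The labels name different suppliers for the Cbx2 antibody in different places. They do not say whether the lines are single clones, and they describe no change to the cells' own histone genes. An input library from the WT cells belongs to the series, but the peak table has no column for it. With 1 library per condition there is no replicate check, and no difference below can be set against the spread between cultures.

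Cbx2 belongs to Polycomb repressive complex 1. Through its chromodomain it binds histone H3 trimethylated at lysine 27, the mark of Polycomb repressive complex 2, and it compacts the chromatin of genes that are kept silent. The K36M histone blocks the enzymes that place methyl groups on H3 lysine 36, and that methylation in turn restrains Polycomb repressive complex 2. Most of the 6 genes are active in the embryo, are low or silent in most adult tissues and are switched on again in many tumours. Lin28b is an RNA-binding protein that blocks the maturation of let-7 microRNAs, and Hmga2 and the Igf2bp genes are known targets of let-7. Igf2bp1, Igf2bp2 and Igf2bp3 are related RNA-binding proteins that control the stability, transport and translation of messenger RNAs. Hmga2 is an AT-hook protein that shapes chromatin, and Plag1 is a zinc finger transcription factor, activated by rearrangement in salivary adenoma and lipoblastoma, whose targets include Igf2.

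Polycomb complexes are commonly found at CpG-rich DNA. The bases just before the annotated start are therefore shown for loci with Cbx2 peaks (Igf2bp3, Lin28b) and for the loci with none (Igf2bp2, Hmga2). The RefSeq promoter table for GRCm38.p6 matched these 4 of the 6 genes by symbol. Each run holds the 250 bases before the start, 5′ to 3′ on the minus strand of the chromosome, on which all 4 genes lie, and CpG dinucleotides are in capitals. The GRCm38.p6 positions are chr6:49214955-49215204 for Igf2bp3, chr10:45470202-45470451 for Lin28b, chr16:22163300-22163549 for Igf2bp2 and chr10:120476470-120476719 for Hmga2. They cannot be set against the mm9 positions of the peaks, so whether a peak covers these bases was not determined.
Igf2bp3: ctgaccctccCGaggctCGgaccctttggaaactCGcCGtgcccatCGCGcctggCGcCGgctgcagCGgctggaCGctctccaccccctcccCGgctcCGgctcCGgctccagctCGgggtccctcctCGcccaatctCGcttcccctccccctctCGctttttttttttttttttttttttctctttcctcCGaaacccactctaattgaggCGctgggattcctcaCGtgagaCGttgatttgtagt
Lin28b: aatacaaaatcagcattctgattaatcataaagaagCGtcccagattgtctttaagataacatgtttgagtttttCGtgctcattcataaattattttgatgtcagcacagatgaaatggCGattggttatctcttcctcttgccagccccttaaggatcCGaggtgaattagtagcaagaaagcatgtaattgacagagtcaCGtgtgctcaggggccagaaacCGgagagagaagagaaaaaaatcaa
Igf2bp2: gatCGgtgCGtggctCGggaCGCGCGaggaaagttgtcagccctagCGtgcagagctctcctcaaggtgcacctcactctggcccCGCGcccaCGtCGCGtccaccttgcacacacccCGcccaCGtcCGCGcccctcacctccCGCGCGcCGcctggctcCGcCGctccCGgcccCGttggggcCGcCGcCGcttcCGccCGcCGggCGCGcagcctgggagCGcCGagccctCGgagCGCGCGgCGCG
Hmga2: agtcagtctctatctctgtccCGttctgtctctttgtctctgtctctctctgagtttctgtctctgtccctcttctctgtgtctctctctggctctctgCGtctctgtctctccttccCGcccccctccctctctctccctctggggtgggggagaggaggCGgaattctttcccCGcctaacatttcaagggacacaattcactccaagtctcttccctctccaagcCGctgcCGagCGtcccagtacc

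The base composition of these stretches is given as a description. With 4 loci and only the bases before 1 start each, whether it goes with a Cbx2 peak was not tested. Igf2bp3, with peaks, had 21 CpG (the letters CG) in 250 bases and 60.4% G and C, and Lin28b, also with peaks, had 6 CpG and 39.2% G and C. The Igf2bp2 stretch was the richest of the 4, with 40 CpG and 77.2% G and C, and its window held no peak. Hmga2, likewise without a peak, had 8 CpG and 56.4% G and C. Over the 32851 promoter entries of the table the median was 6 CpG. At least as many CpG as in the Igf2bp2 stretch were found in 1.31% of entries, as in the Igf2bp3 stretch in 16.3%, as in the Hmga2 stretch in 43.0% and as in the Lin28b stretch in 50.4%. Only 1 start per gene is in the table for these genes, although several transcripts of Lin28b and Igf2bp3 are annotated.

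Values are given as reads per 1000000 library reads (RPM) summed over a peak, and, where peaks of different length are compared, as RPM per kb. The WT library held 29278813 reads and the K36M library 36243012, recovered from the step between values. K36M/WT ratios of RPM are given with a 95% exact (Clopper-Pearson) interval. The intervals cover counting error only. They may be too narrow even for that, since PCR copies without molecular identifiers cannot be told from independent molecules.

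All 8 peaks had less Cbx2 signal in the K36M library than in the WT library, as did 95.4% of all peaks. Of the 8, 7 were at least 2-fold lower, against 75.3% of all peaks, and 2 were at least 4-fold lower, against 15.9% of all peaks. Their median log2 ratio, computed with a pseudocount of 0.1 RPM, was -1.77, with values from -2.52 to -0.86, and the median over all peaks was -1.45. Of the 8 peaks, 6 were at least 5200 bp long, with a median of -1.84, against -1.74 over all 288 peaks of that length. Of these 6, 5 were at least 2-fold lower, against 91.3% of the 288. At least 4-fold lower were 2 of the 6, against 31.25% of the 288. These counts are close to the background, and the loci were chosen with their ratios known, so nothing is read from the counts. At all 8 peaks the whole interval of the ratio was below 1, as at 86.8% of all peaks. The least dense listed peak had 9.5 WT reads per 200 bp. In K36M, scaled to library reads, 3 of the 8 peaks and 13.1% of all peaks reached that density. A list made from WT signal would favour lower K36M values, and how peaks were called is not given. Signal differed widely between loci: the strongest peaks of Plag1, Igf2bp3 and Igf2bp1 together held 88.2% of the WT signal of the 8 peaks and 81.2% of the K36M signal.

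**Figure D1:**
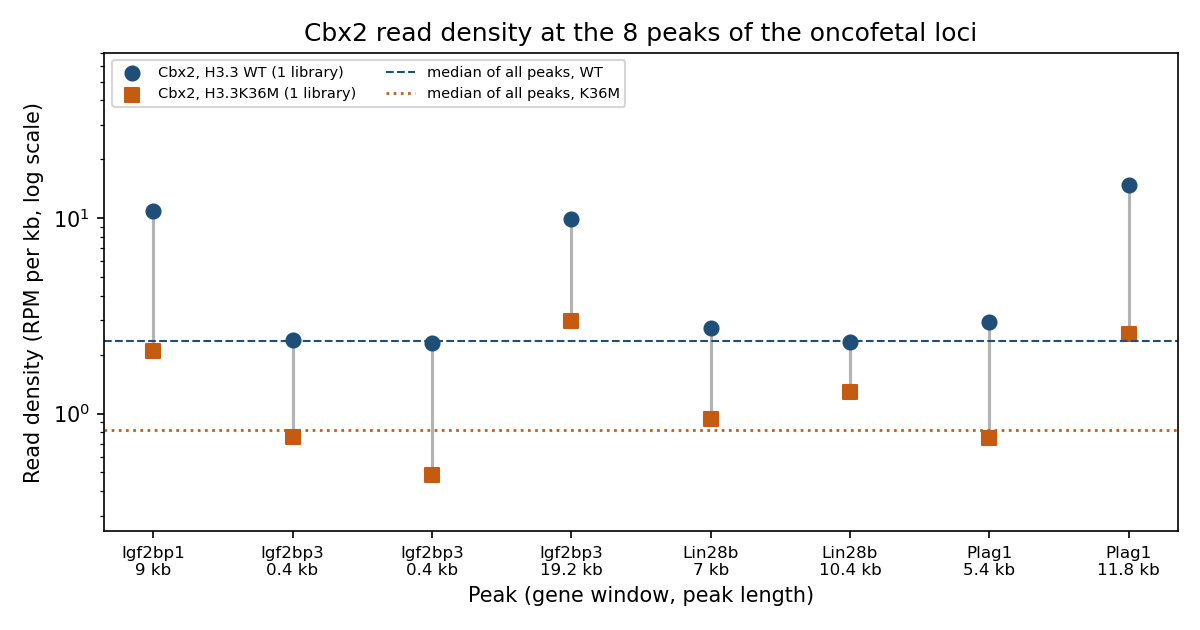
Cbx2 read density at the 8 peaks (x axis, named by gene window and peak length) in RPM per kb on a log scale, with circles for the WT library, squares for the K36M library and lines for the median of all 2217 peaks in each. A group of 3 peaks lies at 9.87 to 14.7 RPM per kb in WT, and the other 5 lie between 2.31 and 2.95, against a median of 2.35 over all peaks.

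The strongest signal per kb among these loci was at Plag1. The 11800 bp Plag1 peak on chromosome 4 (mm9, 3854600 to 3866399) held 173.5 RPM in the WT library and 30.1 RPM in the K36M library, from 5080 and 1092 reads. Per kb this was 14.7 RPM in WT and 2.55 RPM in K36M. It was number 2 of all 2217 peaks in WT read density and number 139 in K36M. The ratio was 0.174 (0.163 to 0.185), a 5.76-fold lower value and the lowest of the 8 peaks, with only 38 peaks of the whole table at a lower log2 ratio.

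A second Plag1 peak, 5400 bp long (3835600 to 3840999), lay 13.6 kb before the first. It held 15.9 RPM in the WT library and 4.06 RPM in the K36M library, from 466 and 147 reads, a ratio of 0.255 (0.210 to 0.307). Its interval, which covers counting error only, did not overlap that of the 11800 bp peak. In these libraries the densest peak of the locus was also proportionally the lower in K36M. Density in WT was 4.99 times higher in the 11800 bp peak than in the 5400 bp peak, and in K36M 3.40 times higher. The window edge cuts through a row of Cbx2 peaks: a 3600 bp peak (3815000 to 3818599) ended 1.40 kb before the window and had a ratio of 0.220 (0.166 to 0.289), and a 1200 bp peak (3892000 to 3893199) began 12.0 kb after it, with a ratio of 0.355 (0.229 to 0.542). By gene order in the RefSeq table, the coding genes next to Plag1 are Mos, a germ cell kinase, and Chchd7.

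The Igf2bp paralogs differed in whether Cbx2 peaks were listed at all. The single Igf2bp1 peak, 9000 bp on chromosome 11 (95865800 to 95874799), held 97.5 RPM in the WT library and 18.8 RPM in the K36M library, from 2854 and 681 reads. It ranked number 5 of all peaks in WT density and number 197 in K36M. Its ratio of 0.193 (0.177 to 0.210) overlapped that of the 11800 bp Plag1 peak, so these were not told apart at this depth. The nearest peaks outside the Igf2bp1 window were a 2600 bp peak (95783000 to 95785599) 14.4 kb before it, with a ratio of 0.338 (0.259 to 0.438), and a 400 bp peak (95985400 to 95985799) 95.4 kb after it, with a ratio of 0.419 (0.203 to 0.827).

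The Igf2bp3 window held the longest peak of the loci, 19200 bp on chromosome 6 (49159800 to 49178999). It held 189.4 RPM in the WT library and 56.8 RPM in the K36M library, from 5546 and 2059 reads, and held 99.0% of the WT peak signal of its window. Its density in WT, 9.87 RPM per kb, was close to that of the Igf2bp1 peak at 10.8 RPM per kb. In K36M the order was the opposite, with 2.96 RPM per kb at Igf2bp3 and 2.09 RPM per kb at Igf2bp1. The ratio at Igf2bp3, 0.300 (0.285 to 0.316), was accordingly higher than at Igf2bp1 and at the 11800 bp Plag1 peak, and its interval overlapped neither. Of all peaks it was number 2 by summed RPM in WT and number 7 in K36M.

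A pair of 400 bp peaks completed the Igf2bp3 window, 49.6 kb apart and with the nearer one 85.8 kb before the long peak. The first (49023600 to 49023999) held 28 WT reads and 11 K36M reads, for a ratio of 0.317 (0.143 to 0.658). The second (49073600 to 49073999) held 27 WT reads and 7 K36M reads, for a ratio of 0.209 (0.0770 to 0.493). Both intervals overlapped that of the long peak, and these few reads cannot show whether the short and long peaks changed by different factors. In WT density they stood at 2.39 and 2.31 RPM per kb, at the level of a typical peak of the table. Outside the window the nearest peaks were a 400 bp peak (48833000 to 48833399) 186.6 kb before it, with a ratio of 0.433 (0.215 to 0.838), and a 3600 bp peak (49350800 to 49354399) 160.8 kb after it, with a ratio of 0.260 (0.200 to 0.335).

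No peak overlapped the 140 kb window of Igf2bp2 on chromosome 16 (22040000 to 22180000), the paralog that stays expressed in many adult tissues. The nearest peak was 600 bp long (22285600 to 22286199), 105.6 kb after the window, with 44 reads in WT and 21 in K36M. On the other side the nearest peak (21333200 to 21333599) lay 706.4 kb away, with 32 reads in WT and 10 in K36M. The least dense peak of the table had 9.5 WT reads per 200 bp, so the lack of a peak says only that no stretch was listed. Reads in the window itself were not analysed here, and a lower level of Cbx2 is not shown to be absent.

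**Figure D2:**
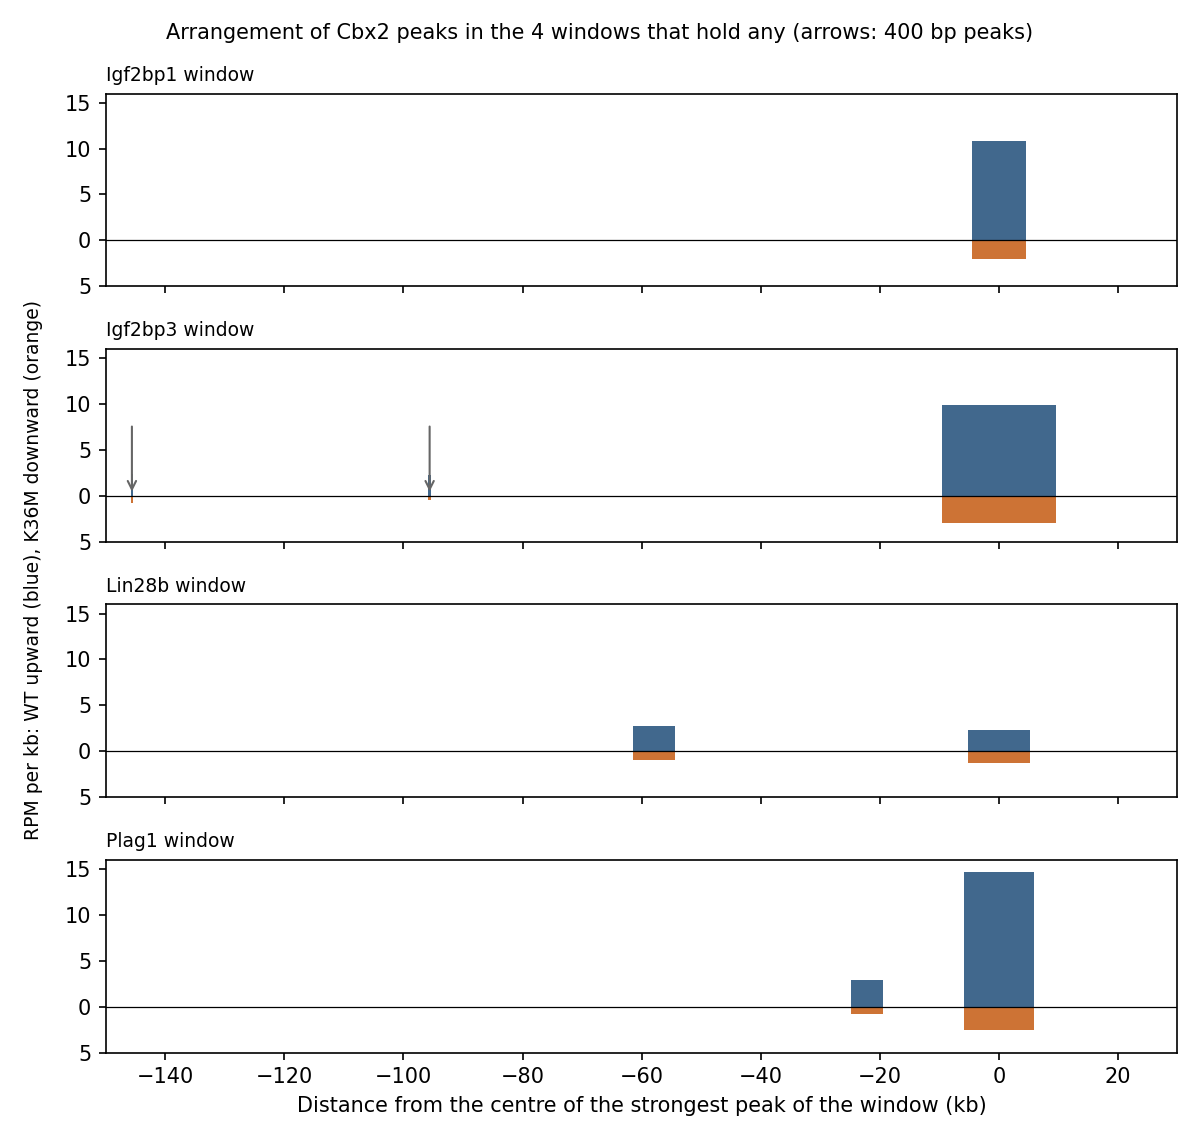
Position and density of the Cbx2 peaks in the 4 windows that hold any, with distance in kb from the centre of the strongest peak on the x axis and RPM per kb on the y axis, WT upward and K36M downward. Igf2bp1 has 1 block, Plag1 a strong and a weak block 13.6 kb apart, Lin28b blocks of similar height 49.2 kb apart, and Igf2bp3 a long block with 400 bp peaks (arrows) far to one side.

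At Lin28b both peaks were long, and the window held no peak as dense as the strongest ones of Plag1, Igf2bp1 and Igf2bp3. Its first peak, 7000 bp on chromosome 10 (45128800 to 45135799), held 19.3 RPM in the WT library and 6.54 RPM in the K36M library, from 564 and 237 reads, a ratio of 0.339 (0.290 to 0.396). The second, 10400 bp long (45185000 to 45195399) and 49.2 kb further on, held 24.3 RPM in the WT library and 13.4 RPM in the K36M library, from 711 and 484 reads. Its ratio of 0.550 (0.489 to 0.618) was the highest of the 8 peaks, and it was the only one less than 2-fold lower in K36M. The intervals of the pair did not overlap. In WT the 7000 bp peak was the denser, at 2.75 against 2.33 RPM per kb, and in K36M the 10400 bp peak was, at 1.28 against 0.934 RPM per kb. Among all 2217 peaks, the 7000 bp peak was number 499 in WT density and the 10400 bp peak number 1135.

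The Lin28b locus was isolated from other Cbx2 peaks. The nearest peak before the window (44243800 to 44246399) lay 833.6 kb away and had a ratio of 0.368 (0.275 to 0.489). The nearest after it (50615400 to 50624199) lay 5395.4 kb away and had a ratio of 0.491 (0.430 to 0.560). The 10400 bp Lin28b peak had a ratio above those of 80% of all peaks, or, among the 288 peaks of at least 5200 bp, rank 271 counted from the lowest. The 11800 bp Plag1 peak stood at rank 11, the Igf2bp1 peak at rank 28, the 5400 bp Plag1 peak at rank 99, the 19200 bp Igf2bp3 peak at rank 145 and the 7000 bp Lin28b peak at rank 188 in the same order.

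Hmga2, the other gene known as a let-7 target with Lin28b and the Igf2bp genes, had no Cbx2 peak in its 150 kb window on chromosome 10 (119780000 to 119930000). The nearest was a 1600 bp peak (120465400 to 120466999), 535.4 kb after the window, with 95 reads in WT and 44 in K36M. Before the window no peak was listed for 3093.6 kb, up to a 400 bp peak (116686000 to 116686399) with 34 WT reads and 11 K36M reads. Of the 6 loci, Hmga2 was the one farthest from any peak.

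Summed over the peaks of each window, the K36M/WT ratios were 0.180 (0.170 to 0.192) at Plag1, 0.193 (0.177 to 0.210) at Igf2bp1, 0.300 (0.285 to 0.315) at Igf2bp3 and 0.457 (0.416 to 0.501) at Lin28b. Neighbours in this order had separate intervals except Plag1 and Igf2bp1. The intervals cover counting error only, and a difference between loci was not tested. The summed WT signal did not follow the same order: it was 191.3 RPM at Igf2bp3, 189.4 RPM at Plag1, 97.5 RPM at Igf2bp1 and 43.5 RPM at Lin28b. Together the 8 peaks made up 1.13% of the length of all peaks, 3.20% of the peak signal in WT and 1.93% in K36M. At Lin28b alone, the share of all peak signal was not lower in K36M, at 0.295% against 0.267% in WT.

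**Figure D3:**
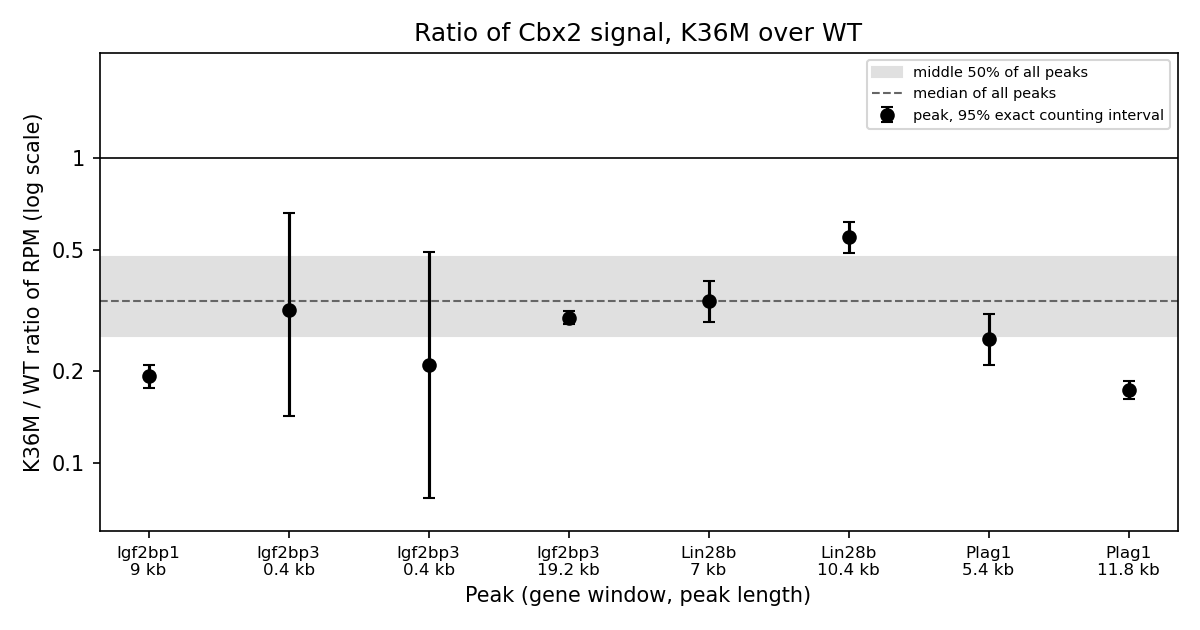
K36M/WT ratio of RPM at the 8 peaks on a log scale, with bars for the 95% exact counting interval, a dashed line for the median of all peaks and a grey band for the middle 50% of all peaks. The Igf2bp1 peak and the 11800 bp Plag1 peak lie below the band with their whole intervals, and the 10400 bp Lin28b peak lies above it at 0.550. The 5400 bp Plag1 peak (0.255) and the second 400 bp Igf2bp3 peak (0.209) also lie below the band, with intervals that reach into it.

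Peaks near the windows gave the local level for comparison. Within 1 Mb of the Igf2bp1 window, 23 other peaks had a median log2 ratio of -1.50 and a lowest value of -2.03. The Igf2bp1 peak had -2.37. Most of these 23 peaks lay close together on the side after the window, so the level there is mainly that of this group. Which genes the group lies at was not tested. Around Plag1, 3 other peaks lay between -2.13 and -1.04, against -2.52 at the 11800 bp peak. The Igf2bp1 peak and the 11800 bp Plag1 peak had the lowest ratio among the peaks compared around each. The loci were chosen with their ratios known, so nothing is read from that position. Around Igf2bp3 the 19200 bp peak was not the lowest: 6 other peaks ranged from -1.90 to -0.22, and it had -1.74. Around Lin28b, 3 other peaks ranged from -2.04 to -1.40, all below the 10400 bp peak at -0.86.

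The densest peaks in WT included both low and high ratios. Whether density goes with the ratio over all peaks was not tested. Of the 8 densest peaks of the table in WT, 3 belonged to these loci, and all 3 were at least 2-fold lower in K36M. Of the other 5, 2 were at least 2-fold lower, and over all peaks the share was 75.3%. The set of 8 ends at the rank of the 19200 bp Igf2bp3 peak, and the loci were chosen with their ratios known. Nothing is therefore read from all 3 being lower. In the plot of all peaks, the dense peaks form a branch near equal density and a branch near a 4-fold lower density, and those of Plag1, Igf2bp1 and Igf2bp3 lie on the latter.

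**Figure D4:**
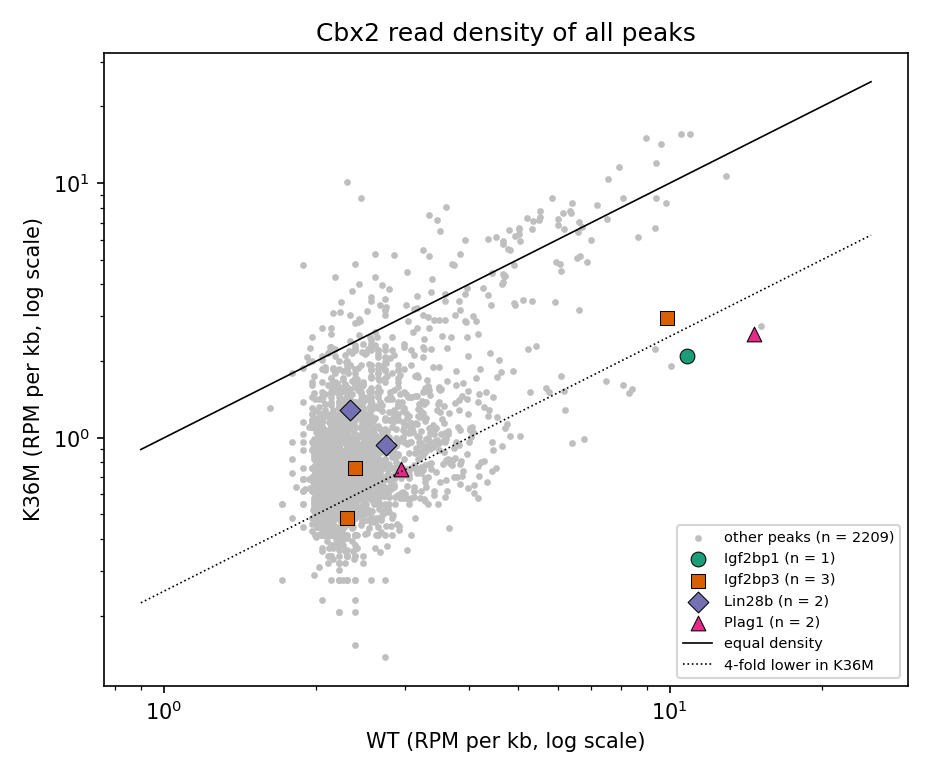
Read density of every peak in WT (x axis) and K36M (y axis), in RPM per kb on log scales, with the 8 peaks coloured by gene window, the other 2209 in grey, a solid line for equal density and a dotted line for a 4-fold lower density in K36M. The strongest Plag1 peak and the Igf2bp1 peak lie below the dotted line at the far right, and both Lin28b peaks lie within the main cloud.

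The differences rest on the scaling to library reads. With the K36M library scaled to the same median over all peaks, a factor of 2.89 that moves the median log2 ratio of all peaks by 1.43, none of the 8 peaks was at least 2-fold lower, against 3.47% of all peaks, and the 10400 bp Lin28b peak was higher in K36M, with a log2 ratio of 0.67. The order of the loci is the same under any single factor. A weaker immunoprecipitation in the K36M library and less Cbx2 at these sites cannot be told apart with 1 library each.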

How the data were processed

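Cbx2 ChIP-seq was measured in 1 WT and 1 K36M library, mapped to groups by their titles. Alignment was with Bowtie 1.0.0 to the mm9 build, per the submitters' processing notes. How peaks were called, duplicates treated and the input used is not given in the sources used here. The deposited values are headed RPKM but are RPM (reads per 1000000 library reads): 100% of values in each column were whole multiples of 1 step, within 1e-06 of a read, whatever the peak length. Reads per peak and per library were recovered from that step. The WT column was read as the ChIP library because the table is named for Cbx2.

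Log2 ratios used a pseudocount of 0.1 RPM, which understates changes of weak peaks, and no background was subtracted. All peaks of the windows and the nearest peak on each side are named. The members and choices were made with earlier results of these data known. Python 3.11.15, pandas 2.3.3 and scipy 1.17.1 were used. Alternatives were pseudocounts, scalings, fold limits, a filter, wider windows and leaving out a locus.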

Additional observations from a re-analysis of the deposited data

How the results depend on the processing

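No paired analysis was possible because there is 1 ChIP library per condition, and for the same reason no replicate could be left out. Of the 8 peaks, 7 were at least 2-fold lower, against 75.3% of all peaks, and their median log2 ratio was -1.77. With the K36M library scaled to the WT median over all peaks, 0 were, against 3.47% of all peaks, and the median was -0.32. With the same sum, 2 were, against 8.39% of all peaks, and the median was -0.58. Under these scalings the 10400 bp Lin28b peak reversed to 0.67 and 0.41 and the summed Lin28b locus to 0.40 and 0.14, while the other 10 single values stayed negative but moved toward 0. A pseudocount of 1 left 5 peaks at least 2-fold lower, brought the median to -1.57 and moved only the 400 bp Igf2bp3 peaks among the single values, to -0.59 and -0.69. Windows widened by 50 kb held 12 peaks, 11 of them at least 2-fold lower, against 75.3% of all peaks, with a median of -1.64 for the 12. Without the Igf2bp3 locus the count was 4, since 3 of the peaks lie there, and the median -1.95; without Lin28b the median was -1.87 and without Plag1 it was -1.64. The pseudocount of 0.01, the limits of 1.5-fold and 3-fold, the filter at the median mean RPM, leaving out Igf2bp1 and, added after seeing the data, leaving out the 400 bp peaks kept the count within 5 to 8, and all of these that give a median moved it by less than 0.1. For the other pseudocounts, the other fold limits and the filter, the share over all peaks is not given. Nothing is therefore read from those counts. Depth limits the 400 bp peaks most, which had 7 to 28 reads in a library.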
